A study of Rattus norvegicus with 743 samples.

Results

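Cmpd Z is a compound known here only by its code name, and its effect on the rat liver transcriptome is described below. It was given to 4 male Han Wistar rats at 400 mg/kg/day for 4 days, in a vehicle of 0.5% methylcellulose. The comparison group was 4 male Han Wistar rats of the same study and batch number, 9, that received the vehicle alone for 4 days. The libraries were chosen by these labels, 4 and 4 of the 743 libraries from 680 rats in the whole series, and each of the 8 animals had 1 library, so none were summed. The series measured liver messenger RNA after repeated dosing with many drugs, 1 day after the last dose. This comparison asks which liver transcripts differ after 4 days of Cmpd Z.

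Hepatocytes respond to foreign chemicals through a few ligand-activated receptors. The aryl hydrocarbon receptor (AhR) switches on Cyp1a1, the constitutive androstane receptor (CAR) switches on Cyp2b genes, and the pregnane X receptor (PXR) switches on Cyp3a genes. NRF2, a factor released by reactive chemicals, controls glutathione and quinone metabolism, SREBP2 controls cholesterol synthesis, and ATF4 controls amino acid synthesis and uptake under stress. Albumin, the urea cycle and many constitutive cytochrome P450s mark the mature hepatocyte.

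Levels are CPM, the counts of a gene scaled to its library total with TMM factors. A change is edgeR's log2 ratio of Cmpd Z over vehicle with its standard error (SE), and "rose" and "fell" are used only for genes with a Benjamini-Hochberg adjusted p under 0.05 in edgeR's quasi-likelihood test. Of 12935 genes tested, 5074 passed (39.2%), 2705 higher (20.9%) and 2369 lower (18.3%), and in 4813 genes (37.2%) the treated and vehicle animals did not overlap. Counts of members below are to be read against these shares. The gene lists overlap, with 70 of 773 matched genes in more than 1 list, so counts of different lists are not independent. Changes of at least 1 on the log2 scale were called in 2059 genes (15.9%), and the median over all genes was 0.0451.

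Library totals were 22.5 to 27.1 M counts. The 50 most abundant genes took 44.7% to 46.4% of the counts in vehicle livers and 36.2% to 40.1% in Cmpd Z livers. RNA integrity numbers were 7.2 to 8.2 and 7.7 to 7.9. Sequencing lane nearly coincided with treatment: vehicle replicates 1 to 3 were read in lane 3, vehicle replicate 4 and Cmpd Z replicates 1 and 2 in lane 4, and Cmpd Z replicates 3 and 4 in lane 5 of 1 flow cell. With lane as a covariate 1109 genes passed, 43.3% of them higher, against 53.3% of the 5074. Within lane 4, 5054 of the 5074 genes (99.6%) changed in the same direction, although those 3 animals are among the 8 behind the calls. Outside lane 4 the effects of lane and treatment cannot be told apart, so the members called with lane as a covariate are given beside each list.

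**Figure D1:**
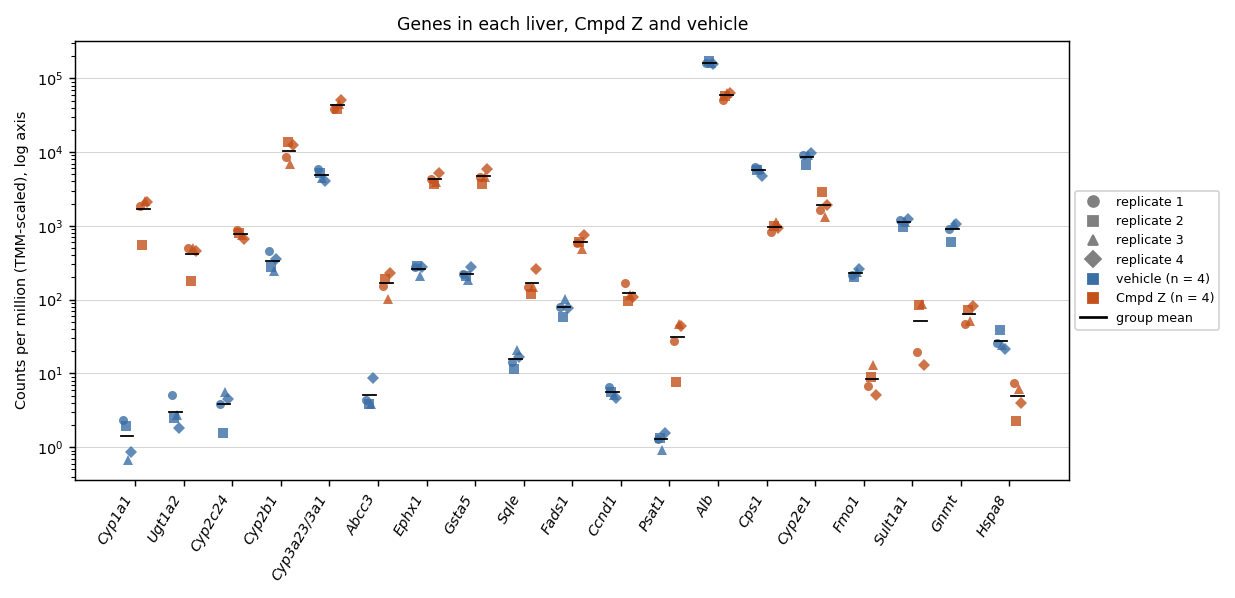
CPM (log axis) of 19 genes in each of the 4 vehicle livers (blue) and 4 Cmpd Z livers (orange), with marker shapes for replicates and black bars for group means. The groups do not overlap for any gene shown, and Cmpd Z replicate 2 is the lowest treated animal for Cyp1a1, Ugt1a2 and Psat1.

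AhR targets were led by Cyp1a1, the P450 that AhR ligands induce, which was low in vehicle livers and abundant after Cmpd Z. Cyp1a1 stood at 2.3, 1.92, 0.676 and 0.851 CPM in the vehicle animals and at 1849, 555, 2194 and 2117 CPM in the Cmpd Z animals. Replicate 2 was the lowest of the treated animals, but all 4 were far above the vehicle animals. The change was 10.18 (SE 0.68, edgeR adjusted p = 2.48e-05), the largest of all genes tested. Cyp1a2, its neighbour with high constitutive expression, stood at 1452, 1969, 1544 and 1720 CPM and then at 2699, 2214, 2521 and 4345 CPM, a change of 0.82 (SE 0.21, edgeR adjusted p = 0.0117) with no overlap, and with lane as a covariate its adjusted p was 0.39. Of 6 AhR targets tested 5 rose and none fell (median log2 change 2.27; with lane as a covariate 1 higher and 0 lower). Ugt1a6 and Ugt1a7c, which glucuronidate phenols, rose from 12.9 to 84.2 CPM and from 12.1 to 125 CPM. Nqo1, a quinone reductase, stood at 47.7, 28.4, 46 and 27.1 CPM and then at 75.9, 123, 60.1 and 273 CPM (log2 change 1.83, SE 0.48, edgeR adjusted p = 0.0175). The groups did not overlap, but the edgeR adjusted p of Nqo1 was 0.0577 without vehicle replicate 2, 0.0518 without vehicle replicate 4 and 0.282 with lane as a covariate. Tiparp, an AhR-induced repressor of the receptor, was at 6.72 and 7.54 CPM (edgeR adjusted p = 0.592), and Ahr itself at 93.4 and 92.8 CPM (edgeR adjusted p = 0.983).

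The promoters of 3 of these members, all of which rose, are shown because each holds GCGTG, the core of the site that activated AhR binds. Tiparp, which did not pass, also holds it, and Cyp1a2, which rose, does not. They are RefSeq sequences of build GRCr8, the 200 bases before the start of the gene, written 5′ to 3′ along the gene with the match in capitals (CACGC is the same site on the other strand). They lie at chr9:96194818-96195017 (plus strand), chr9:96187182-96187381 (plus strand) and chr19:52220268-52220467 (minus strand).
Ugt1a6: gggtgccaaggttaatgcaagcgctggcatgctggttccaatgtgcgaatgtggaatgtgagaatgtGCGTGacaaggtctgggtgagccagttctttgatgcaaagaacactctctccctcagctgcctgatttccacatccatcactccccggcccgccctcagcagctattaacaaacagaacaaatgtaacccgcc
Ugt1a7c: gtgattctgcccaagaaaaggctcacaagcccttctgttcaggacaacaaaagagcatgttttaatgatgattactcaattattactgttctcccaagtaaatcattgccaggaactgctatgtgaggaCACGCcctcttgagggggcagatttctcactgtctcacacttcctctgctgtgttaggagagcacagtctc
Nqo1: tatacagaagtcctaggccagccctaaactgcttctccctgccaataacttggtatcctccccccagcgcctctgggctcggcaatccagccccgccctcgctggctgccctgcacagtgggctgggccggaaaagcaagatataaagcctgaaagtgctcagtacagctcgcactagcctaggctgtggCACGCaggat
The matches begin 133, 71 and 10 bases before the start. Searched on both strands over the 300 bases of each promoter in the RefSeq table, which run past the start, GCGTG was present in 6 of 7 AhR targets with a sequence (85.7%) and in 29.7% of 33469 promoters. A match describes the letters and does not show binding.

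CAR and PXR targets included some of the most abundant transcripts of the treated livers. Of 16 CAR targets tested 12 rose and 2 fell (median log2 change 3.14; with lane as a covariate 9 higher and 1 lower), and of 10 PXR targets 8 rose and none fell (median log2 change 1.40; with lane as a covariate 7 higher and 0 lower). Cyp2b1, the P450 typical of CAR activation, stood at 454, 279, 242 and 353 CPM in the vehicle animals and at 8586, 13870, 6942 and 12520 CPM in the Cmpd Z animals. Every treated animal lay above all vehicle animals, and the change was 4.98 (SE 0.31, edgeR adjusted p = 4.89e-06). Cyp2b2, a near-identical copy between which and Cyp2b1 reads may be split, rose from 214 to 3175 CPM. Ephx1, microsomal epoxide hydrolase, stood at 274, 287, 208 and 279.7 CPM and then at 4333, 3675, 3901 and 5178 CPM, also without overlap, a change of 4.03 (SE 0.18, edgeR adjusted p = 1.07e-06). Abcc3, which exports glucuronides to the blood, rose from 5.13 ± 2.3 to 168 ± 55.1 CPM (SD, n = 4), a change of 5.04 (SE 0.37, edgeR adjusted p = 2.74e-05). Por, the electron donor of the P450s, rose from 299 to 1047 CPM, and Gadd45b, a stress gene that CAR induces, rose from 9.89 to 131 CPM. Among PXR targets, Abcc2, the canalicular exporter of conjugates, rose from 212 to 609 CPM and Ces2a, a carboxylesterase, from 68 to 443 CPM. The CAR targets that fell (2, with 1 without vehicle replicate 1, 2 or 3 or Cmpd Z replicate 1, 2, 3 or 4) were Cyp2b3, from 398 to 251 CPM, and Cdkn1a, described below with p53 targets. The receptors' own transcripts were lower: Nr1i3 (CAR) fell from 137 ± 34.2 to 26.5 ± 11.2 CPM (SD, n = 4), a change of -2.37 (SE 0.33, edgeR adjusted p = 0.000685), and Nr1i2 (PXR) fell from 206 to 109 CPM.

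Cyp3a23/3a1, the main PXR-induced P450 of the rat, stood at 5972, 5228, 4475 and 4044 CPM in the vehicle animals and at 38690, 38540, 44440 and 50200 CPM in the Cmpd Z animals. The groups were far apart, with a change of 3.12 (SE 0.19, edgeR adjusted p = 4.67e-06). The size of this change depended on the gene table. The Ensembl-based table used here has no row for Cyp3a2, whereas the deposited RefSeq-based table lists both genes. In the RefSeq table Cyp3a23/3a1 went from 1060 ± 295 to 27630 ± 4543 CPM (SD, n = 4), a log2 change of 4.70 (SE 0.26, edgeR adjusted p = 2.28e-06). Cyp3a2, a male-predominant relative, went from 6514 ± 1271 to 3677 ± 1573 CPM (SD, n = 4), a log2 change of -0.82 (SE 0.29, edgeR adjusted p = 0.0405), so the relatives moved in opposite directions there. Other Cyp3a genes of the RefSeq table did not move together. Cyp3a62 rose from 13 to 33.9 CPM (edgeR adjusted p = 0.0148) and Cyp3a73 fell from 136 to 8.81 CPM (edgeR adjusted p = 0.00126). Cyp3a18 was at 1528 and 1259 CPM (edgeR adjusted p = 0.54) and Cyp3a9 at 99.5 and 91.7 CPM (edgeR adjusted p = 0.881). How reads were divided between these similar genes is uncertain, and its part in the difference between the tables was not tested.

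Compared per transcript length, both the amount and the makeup of P450 transcripts differed between the groups. In the deposited FPKM table (fragments scaled by gene length and library size), the 54 P450 genes of families 1 to 4 summed to 19890 ± 1266 in vehicle and 48190 ± 5151 in Cmpd Z livers (SD, n = 4). In that table, based on Ensembl genes, Cyp2e1 ranked first in vehicle livers at 4831 ± 816 FPKM, followed by Cyp3a23/3a1 at 2186 ± 377 and Cyp2c6v1 at 1580 ± 222. The next levels, Cyp2c13, Cyp2c7 and Cyp2d2 at 1083 ± 57.4, 1050 ± 90.4 and 1034 ± 85.8, did not differ beyond their spread. After Cmpd Z the order was Cyp3a23/3a1 at 23160 ± 1470, Cyp2b1 at 6122 ± 1792 and Cyp2c6v1 at 4412 ± 1807. The spreads of Cyp2b1 and Cyp2c6v1 overlapped, but Cyp2b1 was the higher in each treated animal. In the order of replicates Cyp2b1 stood at 5507, 8276, 4042 and 6661 FPKM and Cyp2c6v1 at 3250, 6569, 2630 and 5198 FPKM. Cyp2e1 had moved to rank 6, at 1303 ± 454 FPKM. The share of Cyp3a23/3a1 in the sum was 11% in vehicle and 48.6% in treated livers, that of Cyp2b1 0.806% and 12.5%, and that of Cyp2e1 24.3% and 2.67%. Cyp1a1, with the largest log2 change, ranked 12 at 696 ± 310.2 FPKM. These levels are descriptions without a test. FPKM were used as deposited, without the TMM factors of the CPM values. Those factors were 0.887 to 0.956 in vehicle and 0.996 to 1.2 in Cmpd Z libraries. Ratios of Cmpd Z over vehicle therefore come out larger in FPKM than in CPM, also for the P450 sum. Cyp3a23/3a1 went from 4930 to 42970 CPM and from 2186 to 23160 FPKM. The order of P450 genes given above holds for the Ensembl table only. In the RefSeq FPKM table Cyp2e1 was again first in vehicle livers, but Cyp3a2 was at rank 2 with 2932 ± 527 FPKM and Cyp2c7 at rank 3 with 1106 ± 101, with Cyp2c6v1 at rank 7. Cyp3a23/3a1 stood there at rank 12 with 569 ± 152 FPKM, 3% of the P450 sum, and after Cmpd Z at rank 1 with 42.5%. Cyp2b1 followed, and Cyp2b2 at 2889 ± 1543 FPKM and Cyp2c6v1 at 2790 ± 1068 lay within each other's spread.

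**Figure D2:**
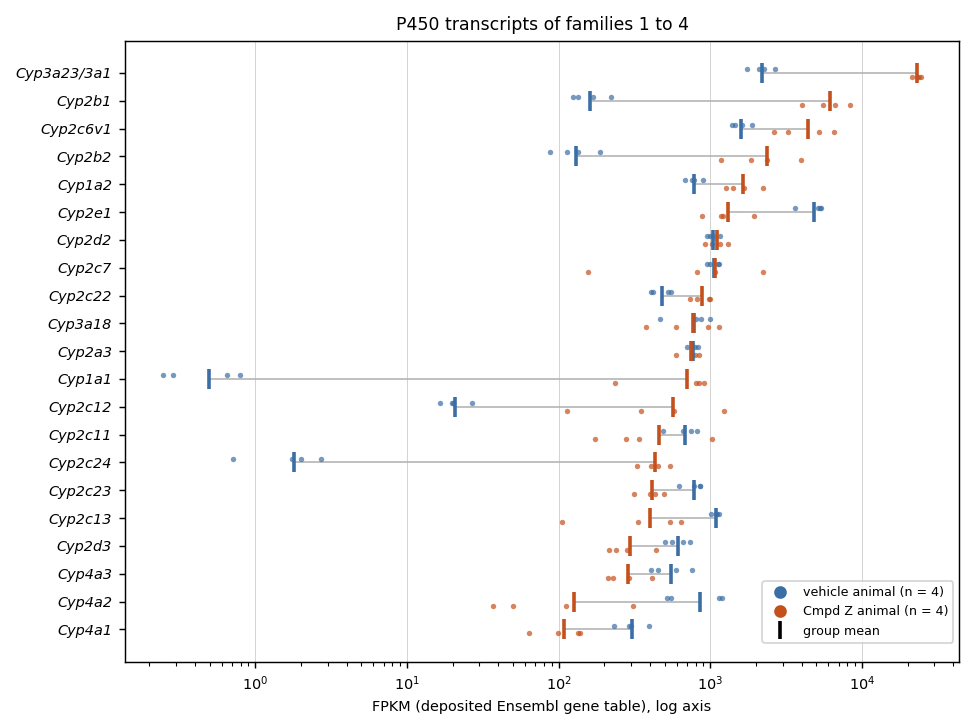
FPKM (log axis) of the P450 genes among the top 16 of families 1 to 4 in either group, with points for the 4 vehicle (blue) and 4 Cmpd Z (orange) animals and vertical ticks for group means. Cyp3a23/3a1 is highest in treated livers, at a mean of 23160 FPKM, and Cyp2e1 is highest in vehicle livers, at 4831 FPKM.

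Transcripts of constitutive oxidising enzymes were mostly lower. Of 15 constitutive P450s tested 10 fell and 2 rose (median log2 change -1.09; with lane as a covariate 0 higher and 4 lower), and of 14 flavin monooxygenases, oxidases and esterases 9 fell and 1, Ephx1, rose (median log2 change -1.14; with lane as a covariate 1 higher and 7 lower). Cyp2e1, which oxidises ethanol and solvents, stood at 9207, 6650, 9094 and 9681 CPM and then at 1650, 2842, 1310 and 1936 CPM. No treated animal reached the vehicle range, and the change was -2.16 (SE 0.24, edgeR adjusted p = 0.000101). Fmo1, a flavin monooxygenase, fell from 228 ± 25.2 to 8.49 ± 3.5 CPM (SD, n = 4), a change of -4.75 (SE 0.28, edgeR adjusted p = 5.86e-06). Fmo5, another, fell from 216 to 52.1 CPM, and Ephx2, the soluble epoxide hydrolase, fell from 211 to 54 CPM, opposite to Ephx1. The constitutive P450s that rose were Cyp2c22, from 897 to 1366 CPM, and Cyp2c12, described below with sex-biased genes.

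Conjugating enzymes divided by family. Of 20 glutathione transferases tested 12 rose and 3 fell (median log2 change 1.01; with lane as a covariate 7 higher and 3 lower), and of 20 sulfotransferase, glucuronosyltransferase and cofactor genes 11 rose and 4 fell (median log2 change 0.79; with lane as a covariate 5 higher and 1 lower). Gsta5 stood at 225, 211, 185 and 277 CPM and then at 4667, 3753, 4574 and 5989 CPM (log2 change 4.40, SE 0.21, edgeR adjusted p = 1.12e-06). Gsta2 rose from 58.9 to 1021 CPM and Gstm1 from 603 to 4844 CPM, with reads of these copies subject to the same uncertainty, while Mgst3 fell from 91.1 to 22.2 CPM, Gstz1 from 621 to 307 CPM and Gsto1 from 106 to 73.7 CPM. The 4 genes that fell in the second list were all sulfotransferases. Ugt1a2, a glucuronosyltransferase, stood at 5.07, 2.5, 2.7 and 1.8 CPM and then at 500.0, 179, 500.3 and 460.5 CPM (log2 change 7.08, SE 0.49, edgeR adjusted p = 2.41e-05), again lowest in treated replicate 2. Ugt1a transcripts share their last exons, so reads may be split among them. Sult1a1, the phenol sulfotransferase, stood at 1209, 977, 1116 and 1240 CPM and then at 19.7, 84.2, 88.6 and 12.9 CPM. It was lower in every treated animal, a change of -4.47 (SE 0.66, edgeR adjusted p = 0.00123), with an adjusted p of 0.0768 with lane as a covariate. Sult1e1, the estrogen sulfotransferase, fell from 1848 to 330.3 CPM. Of 14 drug transporters 5 rose and 5 fell (median log2 change 0.40; with lane as a covariate 4 higher and 2 lower), among them the uptake carriers Slco1b2, from 397 to 134 CPM, and Slc22a8, from 225 to 35.9 CPM. Of 13 heme synthesis and P450 reductase genes 4 rose and 1 fell (median log2 change 0.25; with lane as a covariate 0 higher and 0 lower), and the call that fell was lost (0 without vehicle replicate 1, 2, 3 or 4 or Cmpd Z replicate 1 or 3); Alas1, the first enzyme of heme synthesis, was at 365 and 733 CPM (edgeR adjusted p = 0.0995).

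NRF2 targets rose in 22 of 30 genes tested and none fell (median log2 change 1.27; with lane as a covariate 9 higher and 0 lower). Members also counted above included Abcc3, Ephx1, Gstm1, Gsta3 and Akr7a3 with CAR targets, Gsta2 with PXR targets and Nqo1 with AhR targets. Srxn1, which repairs oxidised peroxiredoxins, rose from 0.764 to 7.94 CPM, Gclc, the catalytic subunit of glutathione synthesis, from 99 to 226 CPM, Gsr, glutathione reductase, from 72.3 to 301 CPM, Hmox1, heme oxygenase, from 33.4 to 102 CPM and Tkt, transketolase, from 76.3 to 409 CPM. Slc7a11, the cystine importer, had 0 counts in every vehicle library and stood at 2.36, 0.374, 2.66 and 3.79 CPM after Cmpd Z. Its treated mean was 15.3 times a floor of 3 counts per library (0.15 CPM), with replicate 2 the nearest to that floor. Gclm, the partner of Gclc, was at 68.6 and 80.2 CPM (edgeR adjusted p = 0.158). Keap1, the inhibitor of NRF2, was at 54.7 and 51.7 CPM (edgeR adjusted p = 0.576), while Nfe2l2, NRF2 itself, rose from 96.2 to 129 CPM.

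The promoters of Gstp1, a glutathione transferase that rose from 9.33 to 20.3 CPM, of Me1, malic enzyme, which rose from 28.2 to 92.7 CPM, and of Gclm are set side by side because all hold TGACNNNGC, the core of the NRF2 element, whether or not the gene passed. The windows and marking are as above, at chr1:210769706-210769905 (minus strand), chr8:96540245-96540444 (minus strand) and chr2:213031935-213032134 (plus strand).
Gstp1: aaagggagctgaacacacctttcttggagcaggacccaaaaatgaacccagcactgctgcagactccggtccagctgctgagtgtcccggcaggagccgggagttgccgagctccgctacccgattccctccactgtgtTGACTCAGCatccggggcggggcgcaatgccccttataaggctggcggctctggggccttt
Me1: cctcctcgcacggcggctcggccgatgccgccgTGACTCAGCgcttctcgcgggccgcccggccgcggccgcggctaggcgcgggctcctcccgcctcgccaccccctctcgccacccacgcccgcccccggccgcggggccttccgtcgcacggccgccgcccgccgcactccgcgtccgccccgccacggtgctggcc
Gclm: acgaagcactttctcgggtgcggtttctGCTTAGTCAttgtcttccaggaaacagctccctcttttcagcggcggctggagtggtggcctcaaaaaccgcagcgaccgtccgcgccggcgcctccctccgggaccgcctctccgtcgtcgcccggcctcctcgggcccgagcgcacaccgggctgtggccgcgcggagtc
The element begins 61, 167 and 172 bases before the start. It was present in 7 of 26 members with a sequence (26.9%) and in 12.1% of all promoters.

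Cholesterol synthesis genes rose in all 20 members tested (median log2 change 2.15; with lane as a covariate 14 higher and 0 lower). Sqle, squalene epoxidase, stood at 14.5, 11.6, 20.4 and 16.7 CPM and then at 149, 121, 150.2 and 257 CPM. All treated animals were above all vehicle animals, and the change was 3.42 (SE 0.27, edgeR adjusted p = 2.15e-05). Fdps, which makes farnesyl diphosphate, rose from 105 to 873 CPM and Msmo1, a sterol demethylase, from 41.7 to 426 CPM. Of 12 sterol sensing and uptake genes 7 rose and 2 fell (median log2 change 0.88; with lane as a covariate 5 higher and 0 lower). Insig1, the sterol-sensing retention protein, rose from 234 to 810.3 CPM. Abca1, a cholesterol exporter, and Nr1h3, the oxysterol receptor LXR alpha, fell from 80.9 to 59.8 CPM and from 149.6 to 97.9 CPM, whereas the exporters Abcg5 and Abcg8 rose from 46.5 to 107 CPM and from 18.8 to 72.5 CPM. The SREBP motif TCACNCCAC was in 0 of the 15 and 0 of the 10 members with a sequence, and in 1.12% of all promoters.

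Fatty acid synthesis and oxidation genes moved apart. Of 14 synthesis genes 9 rose and none fell (median log2 change 1.35; with lane as a covariate 4 higher and 0 lower), and of 32 PPARalpha targets 14 fell and 4 rose (median log2 change -0.42; with lane as a covariate 0 higher and 4 lower), with 2 without vehicle replicate 2 higher. Fads1, a fatty acid desaturase, stood at 78.4, 58.6, 101 and 76.6 CPM and then at 578, 605, 479 and 750.2 CPM (log2 change 2.94, SE 0.20, edgeR adjusted p = 6.01e-06). Scd, the delta-9 desaturase, stood at 55.8, 40.1, 30.2 and 65.9 CPM and then at 309.5, 47.4, 576 and 342 CPM. Its replicate 2 lay inside the vehicle range, and its change was 2.73 (SE 0.65, edgeR adjusted p = 0.0111), with an adjusted p of 0.466 with lane as a covariate. Fasn, fatty acid synthase, rose from 39.4 to 119.7 CPM and Elovl6, an elongase, from 0.853 to 11.9 CPM, while Srebf1 was at 112 and 129 CPM (edgeR adjusted p = 0.523). Among PPARalpha targets, Cyp4a1, a fatty acid omega-hydroxylase, fell from 697 to 206 CPM and Acsl1, which activates fatty acids, from 2254 to 1110 CPM. Cyp4a2 stood at 2500, 2670, 1153 and 1174 CPM and then at 58.4, 84.8, 567 and 214 CPM (log2 change -3.02, SE 0.74, edgeR adjusted p = 0.0131), but in the RefSeq table its change was -1.55 (edgeR adjusted p = 0.276).

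Bile acid genes were lower at several steps, with 8 of 17 lower and 2 higher (median log2 change -0.59; with lane as a covariate 1 higher and 5 lower). Cyp8b1, which directs synthesis to cholic acid, stood at 274, 529, 521 and 176 CPM and then at 7.86, 8.39, 40.8 and 75.4 CPM. It was lower in all treated animals, a change of -3.50 (SE 0.81, edgeR adjusted p = 0.00991). Baat, which conjugates bile acids, fell from 931 to 212 CPM, Cyp27a1, of the alternative pathway, from 557 to 214 CPM, and Abcb11, the canalicular bile salt pump, rose from 589 to 828 CPM. Cyp7a1, the rate-limiting enzyme, stood at 39.4, 51.8, 89.1 and 125 CPM and then at 20.2, 7.6, 71.3 and 9.71 CPM. It did not pass, at -1.49 (SE 0.73, edgeR adjusted p = 0.14), and replicate 3 lay among the vehicle animals. Without that replicate it was -2.60 (edgeR adjusted p = 0.0106), a description only, since the animal was picked for its value. Nr0b2 (SHP), a repressor of Cyp7a1, was at 55.8 and 13.6 CPM (edgeR adjusted p = 0.0503). It passed without Cmpd Z replicate 2, its highest treated animal (edgeR adjusted p = 0.0214), which is likewise a description only.

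**Figure D3:**
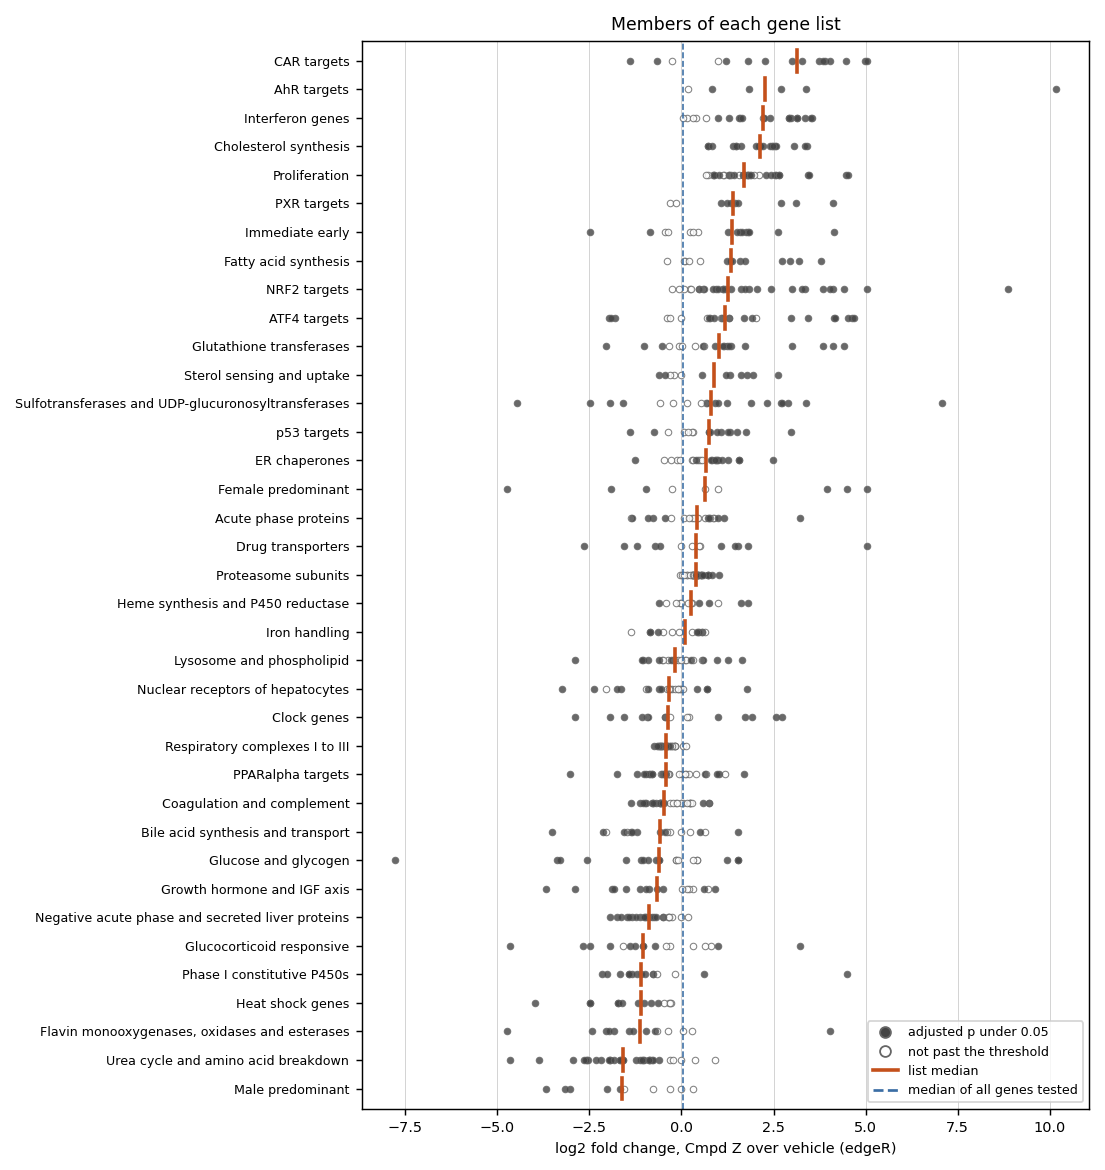
edgeR log2 change of every tested member (points) of each gene list other than cell type markers, ordered by list median (orange bars), with filled points past an adjusted p of 0.05 and a dashed line at the median of all genes. Cholesterol synthesis genes all lie to the right and urea cycle genes mostly to the left, and the NRF2 point near the right edge is Slc7a11, a fitted value with no vehicle counts behind it.

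Many transcripts of secreted hepatocyte proteins were lower. Albumin, Alb, stood at 160100, 173600, 164000 and 158200 CPM in the vehicle animals and at 50510, 57980, 63330 and 62400 CPM in the Cmpd Z animals. The groups did not overlap, and the change was -1.49 (SE 0.16, edgeR adjusted p = 7.33e-05). Of 23 genes of secreted liver proteins tested 16 fell and none rose (median log2 change -0.88; with lane as a covariate 0 higher and 11 lower), and the list summed to 242200 to 262900 CPM in vehicle and 94590 to 122200 CPM in Cmpd Z livers. Alb made up most of this sum in every animal, so the sum largely restates Alb. Apoc3, an inhibitor of triglyceride clearance, fell from 2454 to 915 CPM, Apoa5, its counterpart, from 1164 to 345 CPM and Rbp4, the retinol carrier, from 5427 to 2760 CPM, while Apoa1, of HDL, was at 2890 and 3292 CPM (edgeR adjusted p = 0.494). Of 29 coagulation and complement genes 14 fell and 2 rose (median log2 change -0.46; with lane as a covariate 0 higher and 4 lower). The clotting factors F2, F5, F7, F9, F10, F11, F12 and F13b all fell, F9 from 1012 to 395 CPM, whereas in complement C8g and Cfb fell and C9 and C1s rose. With single animals left out the higher members were 1 without vehicle replicate 1, 2, 3 or 4 or Cmpd Z replicate 3 or 4.

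Transcripts of amino acid breakdown were lower across most of its steps. Of 33 urea cycle and amino acid breakdown genes tested 28 fell and none rose (median log2 change -1.58; with lane as a covariate 0 higher and 20 lower), and their sum was 37230 to 39970 CPM in vehicle and 11960 to 16600 CPM in Cmpd Z livers. Cps1, the entry enzyme of the urea cycle, stood at 6317, 5697, 5823 and 4763 CPM and then at 827, 1011, 1118 and 948 CPM (log2 change -2.53, SE 0.16, edgeR adjusted p = 4.98e-06). Gnmt, which consumes S-adenosylmethionine, stood at 919, 606, 1060 and 1065 CPM and then at 46, 72.7, 51.6 and 81.4 CPM (log2 change -3.86, SE 0.25, edgeR adjusted p = 5.86e-06). Neither gene's groups overlapped. Ass1, of the urea cycle, fell from 3733 to 632 CPM, Sds, serine dehydratase, from 200.5 to 8.03 CPM, Gpt, alanine aminotransferase, from 566 to 72.9 CPM and Cdo1, cysteine dioxygenase, from 1569 to 249 CPM. Asl, argininosuccinate lyase, was at 576 and 574 CPM (edgeR adjusted p = 0.988).

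Glucose and glycogen genes fell in 11 of 20 members and rose in 3 (median log2 change -0.61; with lane as a covariate 1 higher and 8 lower). Ppp1r3c and Ppp1r3b, which bring phosphatase to glycogen, fell from 230.1 to 23.5 CPM and from 242 to 23 CPM. Pck1, of gluconeogenesis, fell from 2843 to 1380 CPM and Slc2a2, the glucose transporter, rose from 172 to 498 CPM. G6pc, glucose-6-phosphatase, was at 558 and 502 CPM (edgeR adjusted p = 0.79).

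Stress programs moved in different directions. Of 24 ATF4 targets 14 rose and 3 fell (median log2 change 1.20; with lane as a covariate 3 higher and 3 lower). Psat1, of serine synthesis, stood at 1.28, 1.34, 0.929 and 1.55 CPM and then at 27.4, 7.64, 46.4 and 44.6 CPM. Replicate 2 was the lowest treated animal, without overlap, and the change was 4.63 (SE 0.58, edgeR adjusted p = 0.000536). Asns, asparagine synthetase, rose from 1.45 to 15.8 CPM, Atf3, a stress-induced repressor, from 1.59 to 28 CPM and Gdf15, a stress hormone, from 3.73 to 29.1 CPM; with lane as a covariate their edgeR adjusted p were 0.101, 0.146 and 0.127. The members that fell were Atf5, from 272 to 77.5 CPM, Cth, from 1047 to 268 CPM, and Gpt2, from 111 to 29.4 CPM, and Ddit3 (CHOP) was at 13.4 and 21.7 CPM (edgeR adjusted p = 0.11). Of 22 endoplasmic reticulum chaperone genes 12 rose and 1 fell (median log2 change 0.68; with lane as a covariate 2 higher and 1 lower), led in level by P4hb, protein disulfide isomerase, from 1043 to 3087 CPM, and Hspa5 (BiP), from 642 to 1223 CPM. Of 14 heat shock genes tested, which include the mitochondrial chaperonins Hspd1 and Hspe1, 10 fell and none rose (median log2 change -1.10; with lane as a covariate 0 higher and 3 lower). Hspa8, the constitutive HSP70, stood at 25.7, 39.2, 24.1 and 21.7 CPM and then at 7.3, 2.25, 6.07 and 4.01 CPM. It was lower in every treated animal, a change of -2.49 (SE 0.35, edgeR adjusted p = 0.00058), with an adjusted p of 0.0748 with lane as a covariate. Of 32 proteasome subunits 16 rose and none fell (median log2 change 0.39; with lane as a covariate 1 higher and 0 lower). Of 28 genes of respiratory complexes I to III 19 fell and none rose (median log2 change -0.41; with lane as a covariate 0 higher and 4 lower), with 10 without vehicle replicate 1, 11 without Cmpd Z replicate 1 and 12 without vehicle replicate 4 or Cmpd Z replicate 3.

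Of 17 p53 targets 10 rose and 2 fell (median log2 change 0.76; with lane as a covariate 1 higher and 0 lower), with 6 without vehicle replicate 4 higher and 1 without Cmpd Z replicate 3 or 4 lower. Mdm2, the inhibitor of p53, rose from 20.7 to 70.1 CPM and Ccng1, cyclin G1, from 25.9 to 54.7 CPM. Cdkn1a (p21) fell from 32 to 12.1 CPM with overlapping groups (edgeR adjusted p = 0.0204), and its adjusted p was 0.0603 and 0.0547 without Cmpd Z replicate 3 or 4.

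Proliferation genes differed in level among the treated animals. Ccnd1, cyclin D1, stood at 6.64, 5.67, 5.15 and 4.66 CPM in the vehicle animals and at 171, 94.6, 117 and 109 CPM in the Cmpd Z animals, a change of 4.47 (SE 0.21, edgeR adjusted p = 1.12e-06). Mcm5, of the replicative helicase, stood at 0.511, 0.447, 0.591 and 0.601 CPM and then at 22.2, 13.6, 8.66 and 5.62 CPM (log2 change 4.53, SE 0.45, edgeR adjusted p = 7.19e-05). For both, the groups were far apart. Mki67, made by cycling cells, stood at 2.73, 2.23, 3.21 and 5.86 CPM and then at 16.3, 18.5, 11.7 and 1.16 CPM. Treated replicate 4 was below every vehicle animal, and the gene did not pass, at 1.77 (SE 0.70, edgeR adjusted p = 0.078). Without that replicate it was 2.14 (edgeR adjusted p = 0.000804), a description only, since the animal was picked for its value. Of 36 proliferation genes 22 rose and none fell (median log2 change 1.71; with lane as a covariate 13 higher and 0 lower), with 36 without Cmpd Z replicate 4. Their sum was 290.1 CPM in that animal, 569.5, 419 and 412 CPM in the other treated animals and 82 to 108 CPM in vehicle animals.

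Interferon and acute phase genes differed among the treated animals. Of 21 interferon genes 15 rose and none fell (median log2 change 2.20; with lane as a covariate 13 higher and 0 lower). The list summed to 1275, 1606, 901.9 and 608.8 CPM in treated replicates 1 to 4 and to 613.5 to 774.6 CPM in vehicle animals. Treated replicate 4 was below every vehicle animal in this sum, although the median of its log2 ratios to the vehicle mean was 0.484. Mx2, an antiviral GTPase, stood at 5.41, 8.93, 3.89 and 5.36 CPM and then at 135, 123, 8.63 and 6.86 CPM. Replicates 1 and 2 were high and replicates 3 and 4 lay inside the vehicle range. The change of Mx2 was 3.54 (SE 1.02, edgeR adjusted p = 0.025), and its adjusted p ran from 0.0518 to 0.0716 without vehicle replicate 2, 3 or 4 or Cmpd Z replicate 1 or 2. Isg15, a ubiquitin-like modifier, stood at 2.3, 3.22, 3.08 and 2.7 CPM and then at 24.6, 61.5, 8.8 and 5.28 CPM, without overlap (log2 change 3.14, SE 0.75, edgeR adjusted p = 0.0112). The high pair are the treated animals of lane 4, which also holds vehicle replicate 4. The interferon genes called with lane as a covariate therefore rest on this pair. Of 21 acute phase genes 5 rose and 4 fell (median log2 change 0.43; with lane as a covariate 0 higher and 3 lower), with 2 without vehicle replicate 2 or 4 and 3 without vehicle replicate 3 or Cmpd Z replicate 3 higher. Hpx, hemopexin, stood at 5600, 4463, 4234 and 4229 CPM and then at 6602, 6132, 11680 and 16530 CPM (log2 change 1.14, SE 0.30, edgeR adjusted p = 0.0129). Lcn2, lipocalin 2, stood at 1.58, 1.52, 3.25 and 2.35 CPM and then at 5.12, 4.64, 55.5 and 15.8 CPM (log2 change 3.22, SE 0.86, edgeR adjusted p = 0.0181). Both were highest in replicates 3 and 4, the animals of lane 5, in which Mx2 and Isg15 were lowest. The acute phase list summed to 43530 and 47800 CPM in treated replicates 1 and 2, below the 51360 to 58690 CPM of the vehicle animals. In treated replicates 3 and 4 it summed to 71980 and 92400 CPM. With lane as a covariate the adjusted p was 0.239 for Hpx and 0.477 for Lcn2, and that of Lcn2 was 0.0673 and 0.0511 without vehicle replicate 2 or 4.

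**Figure D4:**
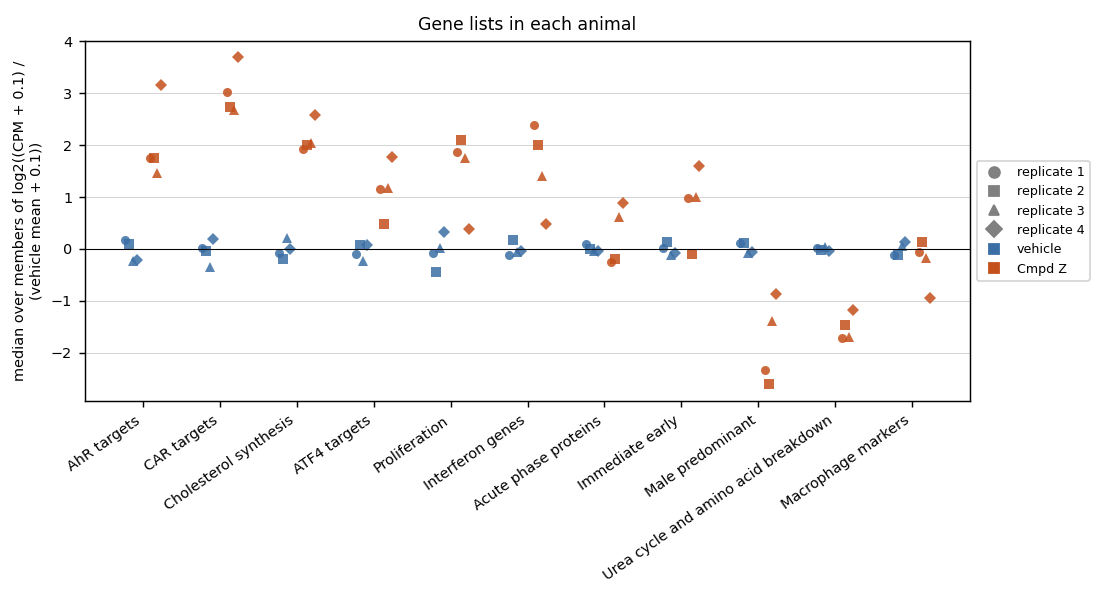
For 11 gene lists, the median over members of each animal's log2 ratio to the vehicle mean (0.1 CPM added to both), with vehicle animals in blue, Cmpd Z animals in orange and marker shapes for replicates. The proliferation list is at 0.384 in Cmpd Z replicate 4 and between 1.76 and 2.10 in the other treated animals.

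Growth hormone, released in pulses in male rats, keeps Cyp2c11 high and Cyp2c12 low. Cyp2c12 stood at 37.6, 32.2, 36.2 and 52.2 CPM in the vehicle animals and at 499.5, 1905, 180.3 and 1004 CPM in the Cmpd Z animals, a change of 4.50 (SE 0.69, edgeR adjusted p = 0.00145), with an adjusted p of 0.114 with lane as a covariate. Cux2, a female-biased repressor, stood at 1.32, 3.35, 0.634 and 0.952 CPM and then at 13.4, 41.8, 1.95 and 39.8 CPM (log2 change 3.95, SE 0.95, edgeR adjusted p = 0.0117), with an adjusted p of 0.252 with lane as a covariate. Both were highest in replicates 2 and 4 and lowest in replicate 3, which for Cux2 lay inside the vehicle range. Cyp2c11 stood at 1515, 935, 1180 and 1436 CPM and then at 393, 266, 528 and 1760 CPM. It did not pass, at -0.78 (SE 0.55, edgeR adjusted p = 0.299), and replicate 4 was above the vehicle range. Without replicate 4 it was -1.70 (edgeR adjusted p = 0.000825), a description only, since that animal was picked for its value. Of 10 male-predominant genes 5 fell and none rose (median log2 change -1.61; with lane as a covariate 0 higher and 6 lower), and of 9 female-predominant genes 3 rose and 3 fell (median log2 change 0.64; with lane as a covariate 1 higher and 1 lower), with 5 without Cmpd Z replicate 4 higher. The largest changes called in the female-predominant list were those of Abcc3, Fmo1 and Cyp2c12. Abcc3, which rose, and Fmo1, which fell, were also counted in lists above. In the growth hormone and IGF list 10 of 17 fell and 2 rose (median log2 change -0.67; with lane as a covariate 0 higher and 1 lower), with 1 without vehicle replicate 1, 2 or 4 or Cmpd Z replicate 1 or 2 higher. Igf1 fell from 210.3 to 114 CPM, Igfals, its carrier, from 126 to 34 CPM and Mup4, a male urinary protein, from 626 to 49 CPM.

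Nuclear receptors and hepatocyte factors were called at a share near that of all genes. Of 24 nuclear receptors and hepatocyte factors 7 fell and 4 rose (median log2 change -0.33; with lane as a covariate 1 higher and 2 lower), with 1 without vehicle replicate 4 and 2 without vehicle replicate 1 or 2 or Cmpd Z replicate 1, 3 or 4 higher. Cebpa, a factor of the mature hepatocyte, stood at 256, 366, 248 and 285 CPM and then at 84, 99.2, 90.3 and 96.5 CPM, without overlap (log2 change -1.64, SE 0.14, edgeR adjusted p = 2.65e-05). Onecut1, a hepatocyte factor, fell from 6.88 to 0.722 CPM, and Hnf4a, another, was at 529 and 418 CPM (edgeR adjusted p = 0.0638). Of 16 clock genes 5 rose and 6 fell (median log2 change -0.38; with lane as a covariate 1 higher and 2 lower). Nr1d1 (REV-ERB alpha), a clock repressor, stood at 5.24, 2.14, 0.972 and 5.06 CPM and then at 15.9, 9.96, 31.4 and 22.3 CPM (log2 change 2.57, SE 0.55, edgeR adjusted p = 0.00703), with an adjusted p of 0.366 with lane as a covariate. Npas2 and Arntl, the activators, fell from 20.9 to 2.82 CPM and from 43.9 to 20.8 CPM, and Per3 rose from 3.97 to 26.2 CPM. Of 17 glucocorticoid-responsive genes 9 fell and 2 rose (median log2 change -1.04; with lane as a covariate 0 higher and 1 lower), with 5 without Cmpd Z replicate 3 lower and 1 without vehicle replicate 2 or 4 higher. Tsc22d3 (GILZ) fell from 131 to 20.5 CPM and Dusp1, a MAP kinase phosphatase, from 271 to 48.7 CPM. Of 16 immediate early genes 9 rose and 2 fell (median log2 change 1.38; with lane as a covariate 0 higher and 1 lower), Myc among them, from 11.3 to 70.1 CPM. Of 14 iron genes 3 rose and 3 fell (median log2 change 0.10; with lane as a covariate 0 higher and 0 lower), with 1 without vehicle replicate 3 or Cmpd Z replicate 1, 2 or 4 higher, and of 24 lysosome and phospholipid genes 5 rose and 6 fell (median log2 change -0.16; with lane as a covariate 0 higher and 3 lower), with 2 without vehicle replicate 2 and 3 without vehicle replicate 1, 3 or 4 or Cmpd Z replicate 3 higher.

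Cell type markers were read to check the labelled tissue. Of 13 hepatocyte markers 7 fell and none rose (median log2 change -0.49; with lane as a covariate 0 higher and 4 lower), with a sum of 224900 to 249800 CPM in vehicle and 88270 to 113300 CPM in Cmpd Z livers. Alb, also counted with secreted proteins, made up most of this sum in every animal. In bulk tissue fewer cells of a type and less RNA per cell cannot be told apart. Of 16 macrophage markers 1 rose and 2 fell (median log2 change -0.15; with lane as a covariate 0 higher and 0 lower), with sums of 932 to 1113 CPM in vehicle and 519.7 to 1135 CPM in Cmpd Z livers. Vsig4, of resident macrophages, stood at 45.2, 38.6, 47.4 and 50.2 CPM and then at 21.2, 30.4, 13.4 and 6.18 CPM (log2 change -1.35, SE 0.41, edgeR adjusted p = 0.0308), and its adjusted p was 0.0827 without Cmpd Z replicate 3. Of 4 neutrophil markers 1, S100a8, rose (median log2 change 1.31; with lane as a covariate 0 higher and 0 lower), with sums of 0.491 to 2.1 CPM in vehicle and 2.39 to 6.78 CPM in Cmpd Z livers. Of 11 lymphocyte markers 3 fell (median log2 change -0.57; with lane as a covariate 0 higher and 0 lower), with sums of 28.8 to 44.2 CPM in vehicle and 16.3 to 28.8 CPM in Cmpd Z livers, and Cd3e, Cd3d and Cd3g had too few counts to be tested. Of 8 erythroid markers 2 fell (median log2 change -0.42; with lane as a covariate 0 higher and 0 lower), with sums of 1139 to 2122 CPM in vehicle and 1107 to 1767 CPM in Cmpd Z livers. Of 17 stellate and fibroblast markers 2 rose (median log2 change 0.35; with lane as a covariate 0 higher and 1 lower), with sums of 915 to 1165 CPM in vehicle and 960.5 to 1496 CPM in Cmpd Z livers. Of 16 endothelial markers 2 rose and 1 fell (median log2 change 0.31; with lane as a covariate 0 higher and 0 lower), with sums of 425 to 505 CPM in vehicle and 457 to 606 CPM in Cmpd Z livers, and 1 of these, Egfl7, changed sign with lane as a covariate (-0.04, edgeR adjusted p = 0.937). Of 10 cholangiocyte markers 1, Epcam, rose from 9.75 to 27.2 CPM (median log2 change 0.00; with lane as a covariate 1 higher and 0 lower), with sums of 33.6 to 40.2 CPM in vehicle and 46.7 to 71.8 CPM in Cmpd Z livers. Leaving out 1 animal changed several of these small counts. Macrophage markers that rose were 0 without vehicle replicate 1, 2 or 3 or Cmpd Z replicate 3 and 2 without vehicle replicate 4 or Cmpd Z replicate 4. Macrophage markers that fell were 0 without Cmpd Z replicate 3, 1 without vehicle replicate 2 or 4 and 4 without Cmpd Z replicate 2. Neutrophil markers that rose were 2 without vehicle replicate 4. Lymphocyte markers that fell were 1 without Cmpd Z replicate 3. Erythroid markers that fell were 0 without vehicle replicate 3 or 4 or Cmpd Z replicate 1 or 3 and 1 without vehicle replicate 2 or Cmpd Z replicate 4. Stellate and fibroblast markers that rose were 0 without vehicle replicate 1 or 3 or Cmpd Z replicate 3, 1 without vehicle replicate 2 or 4 or Cmpd Z replicate 1 and 5 without Cmpd Z replicate 4. Endothelial markers that rose were 0 without vehicle replicate 2, 1 without vehicle replicate 1 or Cmpd Z replicate 1 and 4 without Cmpd Z replicate 4. Endothelial markers that fell were 0 without vehicle replicate 2, 3 or 4 or Cmpd Z replicate 1. The part of cell makeup in the results above was not tested.

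Among genes outside these lists, Cyp2c24 stood at 3.83, 1.56, 5.66 and 4.51 CPM in the vehicle animals and at 893, 802, 742 and 658 CPM in the Cmpd Z animals, a change of 7.63 (SE 0.38, edgeR adjusted p = 2.8e-06). Cyp26a1, which clears retinoic acid, stood at 2.98, 1.12, 1.44 and 2.15 CPM and then at 57.4, 49.5, 205 and 102 CPM (log2 change 5.75, SE 0.59, edgeR adjusted p = 0.000207). Neither gene's groups overlapped. Unlike these, Slc7a1, the arginine importer, is a member of the ATF4 list, and it rose from 0.295 to 7.6 CPM. Gstm3l had counts in 1 vehicle library only and stood at 49.4, 37, 57.8 and 91.6 CPM after Cmpd Z. Among the 15 largest decreases were Stac3, from 17.9 to 0.109 CPM, Etnppl, which breaks down phosphoethanolamine, from 759.6 to 28.9 CPM, Prodh1, from 472 to 18.9 CPM, and Acsm3, an acyl-CoA synthetase, from 145 to 7.33 CPM.

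The treated animals were also set against 96 male Han Wistar rats given methylcellulose vehicle for 4 days in 24 studies, as a description, since batches differ. The 4 vehicle rats of the main comparison are among these 96. Across these, Cyp1a1 ran over 0 to 45.6 CPM, Cyp2b1 over 131 to 535 CPM, Ccnd1 over 3.45 to 76.4 CPM and Sqle over 6.65 to 54.4 CPM, and all 4 Cmpd Z animals were above each range. They were below the ranges of Alb, 107000 to 192700 CPM, and Cps1, 3491 to 9865 CPM. At least 1 treated animal was inside the range for Cyp1a2, 701 to 2880 CPM, Nqo1, 5.21 to 61.4 CPM, Fads1, 35.1 to 604 CPM, and Cyp2e1, 2527 to 9925 CPM. Over 12935 genes, 995 were above and 764 below in all 4 animals. Of 238 genes named by the rule given under processing, 60 were above and 40 below in all 4 animals, and 138 were neither. That rule picks many genes for large changes in these same animals. Their share outside the ranges therefore cannot be set against that of all genes.

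Flutamide, an antiandrogen, and zimelidine, an antidepressant, were compared with Cmpd Z because they were given for 4 days in the same strain, sex and vehicle and share a high Cyp1a1 or high cholesterol synthesis genes. Each had 4 treated rats and 4 vehicle rats in a study of its own, flutamide at 600 mg/kg/day and zimelidine at 400 mg/kg/day, so the flutamide dose differs. The 4 zimelidine vehicle rats had 8 libraries, whose counts were summed per animal. The difference between the effects was tested. It passed in 3072 of 13431 genes for flutamide (22.9%; 1479 with the higher effect in Cmpd Z) and in 3296 of 13444 genes for zimelidine (24.5%; 1640 with the higher effect in Cmpd Z).

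Against flutamide, Cyp1a1 changed by 11.42 with flutamide and by 10.18 with Cmpd Z, a difference of -1.24 (SE 0.93, edgeR adjusted p = 0.364). Flutamide was chosen for its high Cyp1a1, so this is a description, and with an SE of this size it does not show that the effects were alike. Cyp1a2 changed by 3.38 with flutamide and by 0.82 with Cmpd Z, a difference of -2.56 (SE 0.38, edgeR adjusted p = 0.000383). Nqo1 changed by 5.17 with flutamide and by 1.84 with Cmpd Z, a difference of -3.34 (SE 0.57, edgeR adjusted p = 0.00143). The effect on Cyp1a2 and Nqo1 was thus smaller with Cmpd Z. Gstp1 was at 8.79 and 682 CPM without and with flutamide and at 9.59 and 20.9 CPM without and with Cmpd Z, a difference in log2 change of -5.15 (SE 0.94, edgeR adjusted p = 0.00227). Cyp2b1 went the other way and changed by 2.44 with flutamide and by 4.98 with Cmpd Z, a difference of 2.55 (SE 0.42, edgeR adjusted p = 0.000866). Ccnd1, cyclin D1, was at 22.6 and 17 CPM without and with flutamide and at 5.69 and 126 CPM without and with Cmpd Z, a difference in log2 change of 4.88 (SE 0.43, edgeR adjusted p = 1.31e-05). Cyp26b1, a retinoic acid hydroxylase, was at 2.21 and 1.8 CPM without and with flutamide and at 1.16 and 27.1 CPM without and with Cmpd Z, a difference in log2 change of 4.86 (SE 0.73, edgeR adjusted p = 0.000559). Hspa8 changed by 0.05 with flutamide and by -2.48 with Cmpd Z, a difference of -2.54 (SE 0.60, edgeR adjusted p = 0.00861).

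Against zimelidine, Sqle changed by 3.23 with zimelidine and by 3.41 with Cmpd Z, a difference of 0.18 (SE 0.55, edgeR adjusted p = 0.846). Zimelidine was chosen for its high cholesterol synthesis genes, so this is a description, and with an SE of this size a difference of about 1 on the log2 scale could go undetected. Cyp1a1 changed by 6.16 with zimelidine and by 10.16 with Cmpd Z, a difference of 4.00 (SE 0.89, edgeR adjusted p = 0.00558). Ephx1 changed by 1.48 with zimelidine and by 4.02 with Cmpd Z, a difference of 2.53 (SE 0.22, edgeR adjusted p = 3.96e-06). Both genes were raised more by Cmpd Z. Cps1 changed by 0.03 with zimelidine and by -2.55 with Cmpd Z, a difference of -2.58 (SE 0.22, edgeR adjusted p = 2.47e-06). Alb was at 144700 and 167300 CPM without and with zimelidine and at 158800 and 56180 CPM without and with Cmpd Z, a difference in log2 change of -1.71 (SE 0.18, edgeR adjusted p = 1.3e-05). Both genes were low after Cmpd Z and near or above their vehicle level after zimelidine.

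**Figure D5:**
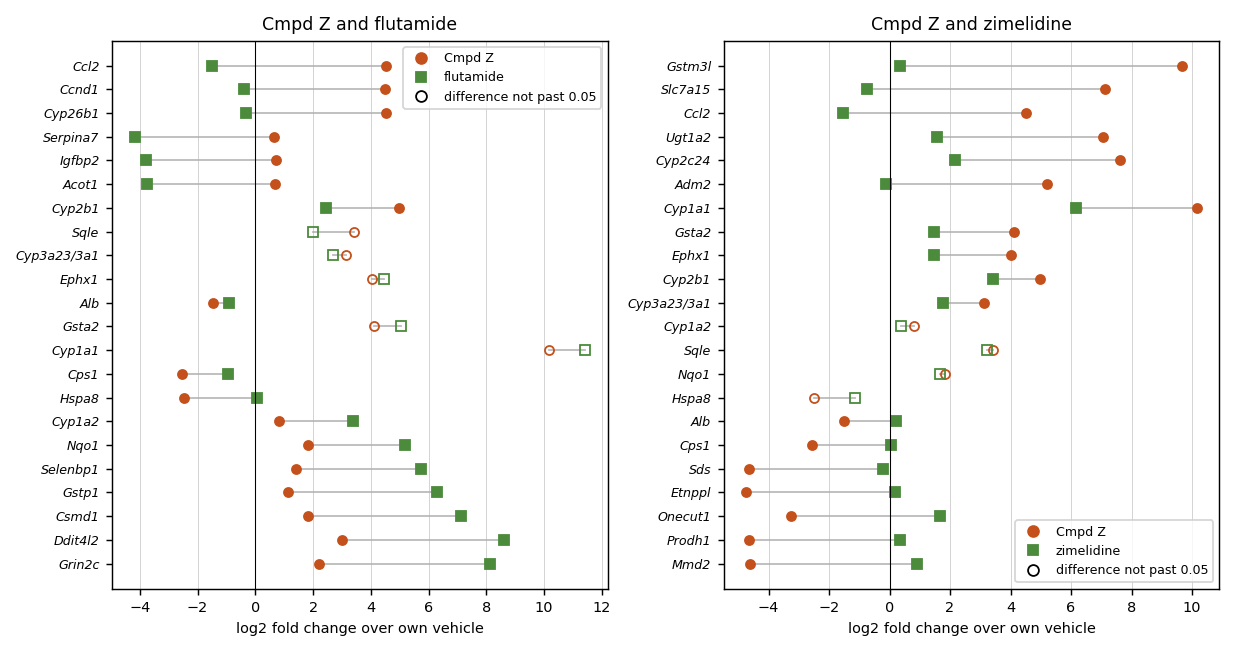
log2 change over each study's own vehicle animals (n = 4 per group) for Cmpd Z (orange circles) and flutamide (left) or zimelidine (right), both as green squares, with open symbols where the difference did not pass an adjusted p of 0.05. Cyp1a1 is open for flutamide and Sqle is open for zimelidine, and the values of Gstm3l, Slc7a15, Ddit4l2 and Ccl2 rest on few vehicle counts.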

How the data were processed

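Liver RNA of 8 rats was measured by RNA sequencing of poly(A) libraries (MagMAX extraction and TruSeq Stranded mRNA libraries, per the labels' protocols). The authors deposited expected counts per gene and library, for Ensembl and for RefSeq genes, and tables of FPKM, made on genome build Rnor_6.0 per the submitters' processing notes. The aligner and quantifier are not given in the sources used here. Flow cell and lane came from read file names in the deposited sample table.

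Expected counts of the Ensembl table were rounded and tested with edgeR 4.0.16 (R 4.3.3; filterByExpr, TMM, robust quasi-likelihood F test, Benjamini-Hochberg threshold 0.05); 88.0% of non-zero values were whole within 1e-06. Contrasts with flutamide and zimelidine fitted 4 group means. Animals have separate identifiers in the labels and are the replicates. FPKM, used as deposited and without TMM factors, served to compare levels between genes and to describe P450 sums and shares in each group. Promoters came from RefSeq (GRCr8), matched by symbol. The row of the combined Ugt1a locus was left out, and a symbol on several rows was taken from the row with most counts. The members and the 45 gene lists were chosen with earlier results of these data known. Named genes are the key members of each list, the 3 called members with the largest change per list, the 15 largest increases and decreases with a mean of at least 5 CPM and no overlap, and the 6 largest differences per direction and contrast; further list members are named as examples chosen after their values were seen, and some genes that this rule names are not reported here. The test was checked on simulated data. Alternatives used DESeq2 1.42.0, RLE factors, no low count filter, the RefSeq table, a minimum change, RNA integrity and lane as covariates, more vehicle animals and leaving out each animal.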

Additional observations from a re-analysis of the deposited data

Results flagged for a closer look

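In 8 of 110 groups of 4 animals, over 55 genes, 1 animal stood apart from the other 3, past the 95% critical value of Dixon's test, which chance passes in about 1 group in 20. Cmpd Z replicate 2 accounted for 3 of these. It was low for Ugt1a2, at 179 CPM against 460.5 to 500.3 CPM in the other treated animals. It was high for Nr0b2, at 30.7 CPM against 6.82 to 9.79 CPM, and for Cish, a growth hormone-induced inhibitor, at 7.87 CPM against 1.13 to 1.57 CPM. The other 5 were vehicle animals. Vehicle replicate 1 was high for Hpx, at 5600 CPM against 4229 to 4463 CPM, and for Cish, at 52.1 CPM against 9.06 to 13.9 CPM. Vehicle replicate 2 was high for Gdf15, at 7.77 CPM against 2.03 to 2.73 CPM, vehicle replicate 3 low for Ephx1, at 208 CPM against 274 to 287 CPM, and vehicle replicate 4 high for Abcc3, at 8.56 CPM against 3.8 to 4.3 CPM.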

How the results depend on the processing

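No paired analysis was possible because the labels give no replicate numbers. Against 5074 genes called, RLE factors gave 5014, DESeq2 5476, no low count filter 4867, the RefSeq gene set 5898, RNA integrity as a covariate 4466, all batch 9 vehicle animals 7067 and leaving out 1 animal 4101 to 5505. A minimum change of 1 on the log2 scale gave 2059 (1060 higher and 999 lower). Lane as a covariate, chosen after seeing the data, gave 1109 (480 higher and 629 lower), 43.3% higher against 53.3%; the cause was not tested, and the estimate rests on 3 animals of lane 4. Under that covariate Egfl7 turned to -0.0371, the only reversal among the named genes under the alternatives run. Leaving out 1 animal moved the differences from flutamide to 2505 to 3504 genes and from zimelidine to 2773 to 4018. The wider motif TGANNNNGC was in 14 of 26 NRF2 targets, against 7, and in 40.5% of all promoters. In the simulated data 50.5% of changes of 1 on the log2 scale were recovered and 93% of changes of 2. With 4 animals a group, changes of 1 on the log2 scale and smaller ones may thus have been missed.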
